A study of Mus musculus with 8 samples.

Results

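The sequences described here are the fragments of tRNA Glu-CTC, the glutamate tRNA whose anticodon reads CTC, in mouse pancreatic β-cells. They are all sequences that carry this tRNA's name in a table of tRNA-derived fragments (tRFs), 128 of 2226, whatever their length, position or level. Sorted β-cells from male mice at 8 weeks of age gave 8 small RNA libraries, 4 for each genotype. The db/db mice (BKS.Cg-Dock7m+/+LeprdbJ) carry a leptin receptor mutation and become obese and diabetic, and the wild type controls (BKS.Cg-Dock7m+/+) share the Dock7m background. The labels give no treatment. Each preparation pooled islets of several animals, fewer for db/db than for wild type, and β-cells were sorted by their autofluorescence, which enriches them without a marker gene. The table holds only tRFs, so no β-cell marker could be checked in it. Because the samples are bulk RNA, fewer fragments per cell and fewer cells that make them cannot be told apart.

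A mature tRNA folds into a cloverleaf with an acceptor end, which receives CCA and then the amino acid, and with an anticodon loop opposite to it. Cells cut tRNAs in this loop under stress. The RNase angiogenin is the best known enzyme for this, and the cut leaves a 5′ and a 3′ part. Cuts elsewhere in the tRNA also yield fragments. Fragments are named 5′tRFs, internal fragments and 3′tRFs after the part of the tRNA they come from. The 5′ fragments of glutamate and glycine tRNAs are among the most often described. In β-cells the 5′tRF of Glu-CTC was the fragment on which the work behind these libraries centred.

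RefSeq lists 12 genes for this tRNA on the mouse build GRCm38.p6, the build the reads were aligned to, each 72 bases long. On chromosome 1 there are 4 of them, n-TEctc5 (171064164 to 171064235, in an intron of Fcgr3), n-TEctc8 (171071792 to 171071863), n-TEctc7 (171079406 to 171079477) and n-TEctc6 (171103043 to 171103114). Of the other genes, n-TEctc3 lies in an intron of Arrb1 (chromosome 7, 99543900 to 99543971) and n-TEctc4 in an intron of Hdgfl2 (chromosome 17, 56092001 to 56092072). The remaining 9 genes, counting the last 3 on chromosome 1, lie between annotated genes. A fragment cannot be assigned to one of these genes from the table. With the CCA that is added after transcription, the mature tRNA has 75 bases.

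Fragments outside the 3′ end were placed by their overlaps, with base 1 at the 5′ end and numbering straight along the sequence. Those that end in CCA were placed by counting back from base 75, the last base of the mature tRNA. The anticodon CTC lies at bases 34 to 36, and in the standard fold the anticodon loop begins at base 32.

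Internal fragments, on which many of the results turn, are shown with capitals for loop bases. They range from the most abundant one, which ends before the loop, to examples that end in it:
bases 8 to 26: tggtctagtggttaggatt
bases 8 to 32: tggtctagtggttaggattcggcgC
bases 9 to 33: ggtctagtggttaggattcggcgCT
bases 17 to 34: ggttaggattcggcgCTC

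The most abundant Glu-CTC sequence in the table was a 3′ fragment, shown with the added CCA in capitals:
bases 47 to 75: cccgggttcgattcccggtcagggaaCCA

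The table holds fragments of 16 to 30 nt. A fragment that starts at base 1 could therefore end at base 30 at most, before the loop, while one that starts further inside could end in it. Fragments longer than 30 nt, which would include 5′ fragments cut at the anticodon itself, were not analysed here.

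The libraries held 582165 to 2946290 tRF counts, each a count of unique molecules, and 5315 to 24523 of these were named Glu-CTC. Levels are given as CPM, tRF counts relative to the TMM-scaled tRF total of the library, and differences as log2 fold changes of db/db against wild type with their standard errors (SE). Where 4 values stand for a genotype, they follow replicates 1 to 4. A sequence or family was called changed when edgeR's quasi-likelihood test gave a Benjamini-Hochberg adjusted p-value below 0.1 over all features tested and the fold change was above 2. All pairs of libraries of the same genotype differed by more than sampling noise over the Glu-CTC sequences (chi-square per degree of freedom between 3.97 and 27.2 in 12 pairs).

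Most Glu-CTC counts were 3′ fragments that ended in the complete CCA. These 13 sequences held 71.2% of the counts over all libraries, the 103 internal sequences 22.8%, the 7 sequences from base 1 4.57%, and the 5 sequences from bases 2 to 4 1.44%. The share of all tRF counts that came from Glu-CTC reached 0.950%, 1.25%, 1.16% and 1.94% in wild type preparations and 2.02%, 0.913%, 0.744% and 1.64% in those of db/db. The genotypes overlapped in this share, with means of 1.32% ± 0.428 (SD, n = 4) and 1.33% ± 0.601 (two-sided exact permutation test, p = 1).

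Within Glu-CTC, 2 fragments that start at bases 2 to 4 rose in db/db β-cells, and so did 8 internal fragments. These 10 were 9.35% of the Glu-CTC sequences tested, where 5.57% of all sequences tested were called higher. All 10 end in the anticodon loop, as do most of the Glu-CTC sequences tested outside the 3′ end. The summed family from bases 2 to 4 rose 4.39-fold and was the only called family among the 4 of Glu-CTC. Fragments from base 1, internal fragments and complete 3′ ends were not called as families. Of all 138 families tested over all tRNAs, 5.07% were called higher and 16.7% lower.

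The family from bases 2 to 4 stood at 50.9, 43.5, 78.7 and 65.7 CPM in wild type and reached 199, 284, 373 and 194 CPM in db/db. Every db/db library was above every wild type library. Of the 4 sequences of this family that were tested, 2 were called higher, and the other 2 were not called, with 1 above and 1 below 0. The mean rose from 59.7 ± 15.7 CPM (SD, n = 4) to 262 ± 84.6 CPM (SD, n = 4), with a log2 fold change of 2.14 (SE 0.31, edgeR, adjusted p = 8.58e-05). Its log2 fold change lay between 1.92 and 2.30 when any single library was left out. Scaled to the effective library sizes behind the deposited log2 values, the family was at 1.73 and no longer called (adjusted p = 0.104), on a scale where the median family stood at −0.68.

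The family from base 1, the canonical 5′tRF, stood at 549, 731, 827 and 930 CPM in wild type libraries and at 580, 452, 378 and 590 CPM in db/db libraries. The highest db/db libraries lay within the wild type range. At a log2 fold change of −0.60 (SE 0.28, adjusted p = 0.167) it was not called, and it lay below 0 in all 22 alternatives. With totals of all counts inferred from the deposited RPM in place of tRF totals it was −1.22 and called (adjusted p = 0.021), where the median family stood at −0.57.

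Summed over both families, the 5′ region (starts at bases 1 to 4) had 816 ± 174 CPM in wild type and 766 ± 29 CPM in db/db (SD, n = 4 each), with a log2 fold change of −0.09 (SE 0.26, adjusted p = 0.835). The call on starts at bases 2 to 4 thus came without a detectable change of the sum.

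**Figure D1:**
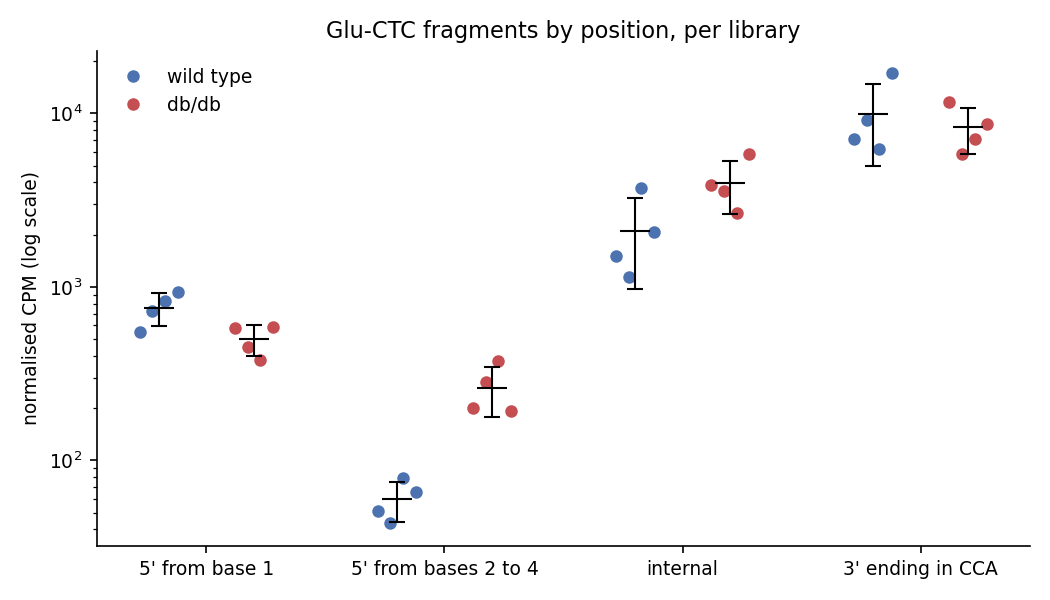
Normalised CPM (log scale) of the 4 position families of Glu-CTC in each library. Points are libraries, bars the mean and SD of 4 libraries, blue wild type and red db/db. Only the family from bases 2 to 4 separates the genotypes, with wild type libraries between 43.5 and 78.7 and db/db libraries between 194 and 373.

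Single sequences were tested as well. Of the 128 sequences, 107 passed the filter on low counts and were tested, and 10 of these were called higher in db/db, 9.35%, and 0 lower. The called ones were 8 of the 86 internal sequences tested and 2 of the 4 from bases 2 to 4, which both ended inside the loop. Of the 6 tested sequences from base 1, 5 had a log2 fold change below 0 and 0 were called. Over all 1832 sequences tested, 5.57% were called higher and 9.44% lower. At an unadjusted p below 0.05 in edgeR's quasi-likelihood test, 3 Glu-CTC sequences were lower and 21 higher. Of all sequences tested, 12.4% were lower and 8.84% higher. DESeq2 called 15 Glu-CTC sequences higher and 1 lower, and over all 1832 sequences 114 higher and 180 lower. The number of calls depended on single libraries. It was 6 without wild type 1, 36 without wild type 3, 20 without db/db 3 and 4 without db/db 4. In the same fits the number called higher over all sequences, 102 in the report, moved to 93, 176, 138 and 79. The median log2 fold change of the tested Glu-CTC sequences was 0.60, against 0.00 over all sequences.

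Over the 5′ region, as far as fragments of up to 30 nt show it, starts after base 1 made up 8.49%, 5.61%, 8.69% and 6.60% of the counts in wild type, against 25.6%, 38.5%, 49.7% and 24.7% in db/db. The groups did not overlap, and the means differed by 27.3 percentage points (two-sided exact permutation test over 70 assignments, p = 0.0286, adjusted p = 0.1 over 7 values), where 0.0286 is the smallest p this design allows. The count-weighted mean length of the 5′ region averaged 28.4 ± 0.190 nt in wild type, compared with 28.7 ± 0.236 nt for db/db (SD, n = 4, exact p = 0.0286, adjusted p = 0.1). The share of 28 to 30 nt fragments was 70.6% ± 6.47 and 79.0% ± 4.49 (SD, n = 4, exact p = 0.0571, adjusted p = 0.133), with db/db 4 inside the wild type range. None of the values tested on composition passed the threshold of 0.05 after adjustment. With 0.0286 as the smallest p and adjustment over 7 values, no value could pass unless several others also reached that p. The adjusted p-values therefore decide nothing on the values that separated the genotypes.

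The internal fragments, which start between bases 5 and 22 and lack both ends, were the most varied class, with 103 sequences of which 86 were tested. Of these, 8 were called higher and 0 lower, and 79 had a log2 fold change above 0, as did 50.2% of all sequences tested. At an unadjusted p below 0.05 edgeR gave 19 higher and 0 lower, against 8.84% and 12.4% of all sequences tested. The median log2 fold change of the internal sequences was 0.70. As a family they stood at 1505, 1143, 3704 and 2082 CPM in wild type and at 3844, 3584, 2660 and 5839 CPM in db/db, so that wild type 3 lay within the db/db range. At 0.92 on the log2 scale (SE 0.38, adjusted p = 0.119) the family was not called. Without wild type 3 it was 1.36 and called (adjusted p = 0.0083), and without db/db 3 it was 1.07 and called (adjusted p = 0.0665). With totals of all counts it was 0.44 (adjusted p = 0.425) and with the effective library sizes 0.27 (adjusted p = 0.862), scales on which the median family lay below 0 as given above.

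Wild type 1 and 2, the lowest libraries in the internal family, also had the lowest totals of all counts, 1445173 and 1206615 against 1897824 to 5316715 in the other 6 libraries. The part of this in the result was not tested. With both left out, an alternative chosen after seeing the data, 2 Glu-CTC sequences were called, both of the family from bases 2 to 4, and the internal family was at 0.33 (adjusted p = 0.739). The family from bases 2 to 4 was at 1.73 and still called (adjusted p = 0.0061).

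The called internal fragments started at bases 8 to 17 and all ended inside the loop, as did most of the internal sequences tested. The fragment from base 17 to base 34 stood at 5.34, 8.12, 23.5 and 20.1 CPM in wild type and at 55.1, 34.3, 35.4 and 89.7 CPM in db/db, without overlap, at a log2 fold change of 1.88 (SE 0.53, adjusted p = 0.0169). That from base 9 to base 33 stood at 17.8, 12.2, 33.6 and 26.3 CPM in wild type and at 78.2, 50.5, 43.3 and 102 CPM in db/db, also without overlap, at 1.60 (SE 0.46, adjusted p = 0.019). Both have their highest level in db/db 4 and their lowest in wild type 1 or 2.

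Of the other called ones, 4 ended at base 32. They started at base 8 (log2 fold change 1.19, adjusted p = 0.0931), base 10 (1.57, adjusted p = 0.0609), base 15 (1.59, adjusted p = 0.0499) and base 16 (1.68, adjusted p = 0.073). The fragment from base 10 to base 34 (1.54, adjusted p = 0.047) and that from base 17 to base 36 (1.17, adjusted p = 0.0967), which ends on the last anticodon base, complete the list. The fragments from bases 8, 10 and 16 to base 32 and from base 17 to base 36 overlapped between the genotypes in 1 or more libraries. With totals of all counts the only internal fragment still called was that from base 17 to base 34 (1.59, adjusted p = 0.066). With the effective library sizes no internal fragment was called. The median sequence stood at −0.36 and −0.51 on these scales. Removing any single library kept the calls from base 17 to base 34 and from base 9 to base 33. Every other called internal fragment missed the threshold in some of these fits.

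The 2 most abundant internal fragments were not called. The fragment from base 8 to base 26 stood at 142, 118, 138 and 67.2 CPM in wild type and at 70.5, 116, 31.2 and 78.2 CPM in db/db, with a log2 fold change of −0.67 (SE 0.41, adjusted p = 0.386). That from base 9 to base 35 stood at 83.6, 25.7, 90.7 and 71.8 CPM in wild type and at 63.8, 88.4, 106 and 95.9 CPM in db/db, at 0.39 (SE 0.41, adjusted p = 0.64). Thus the first, which stops short of the loop, and the second, which ends in the anticodon, lay on opposite sides of 0, and neither passed the test.

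Without the limit on fold change 10 sequences would be called higher and 1, from base 1, lower. Of the internal fragments the one from base 17 to base 32 (1.35, adjusted p = 0.104) was among those just outside the call. Just inside it were those from base 17 to base 36 and from base 8 to base 32, given above. All 107 tested sequences together showed no overlap with db/db above in 9 cases and with db/db below in 1. Over all 1832 sequences tested in the table these were 6.99% and 10.2%.

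**Figure D2:**
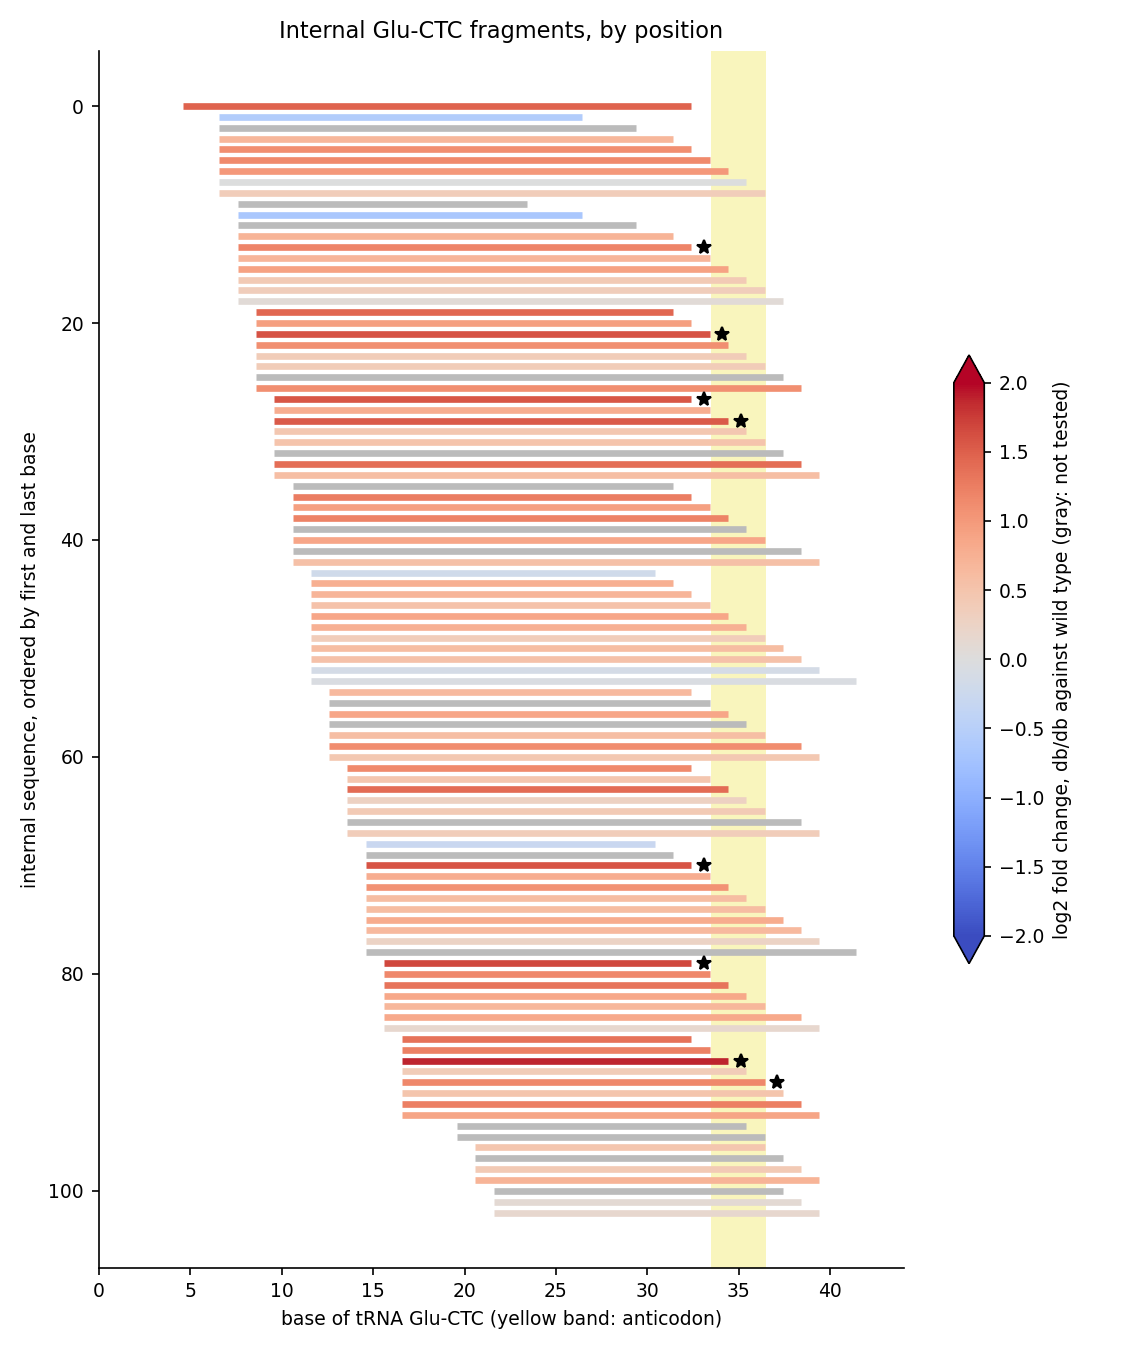
Each bar is an internal Glu-CTC sequence, drawn from its first to its last base (horizontal axis, base of the tRNA) and colored by log2 fold change of db/db against wild type, gray where not tested. Stars mark the 8 called sequences and the yellow band the anticodon, and bars that end at bases 31 to 36 are mostly red.

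Arranged by their last base, the sequences outside the 3′ end fell into groups. This arrangement was made after the calls had been seen and is a description. Of 11 tested sequences that ended at base 30 or before, 10 had a log2 fold change below 0 (median −0.56). Among these 11 are the 6 tested sequences from base 1, which at the limit of 30 nt cannot end later. Start and end cannot be told apart for them. All 29 tested sequences that ended at bases 31 to 33 were above 0 (median 1.15, 7 called), as were 31 of 32 that ended on the anticodon bases 34 to 36 (median 0.64, 3 called) and 22 of 24 that ended at base 37 or later (median 0.54, 0 called). These sequences overlap each other and come from the same libraries, so that they are not independent of each other.

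Base 32 stood out among the single end positions. All 14 sequences that end there were tested, 6 of them were called, and they summed to 210, 168, 500 and 219 CPM in wild type, against 717, 662, 627 and 970 CPM in db/db. It was the only last base at which every db/db library was above every wild type library. The sum includes the called fragments that start at bases 2 to 4, and without these the genotypes overlapped at this base. Ends at base 34 summed to 258 CPM in wild type and to 569 CPM in db/db on average, at base 36 426 and 613 CPM, and at base 26 323 and 184 CPM. A cut after base 32 lies between the first and the second loop base, ahead of the anticodon.

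As a share of the Glu-CTC counts outside the 3′ end, which needs no scaling, ends at base 30 or before made up 36.1%, 50.9%, 23.3% and 36.2% in wild type, against 17.2%, 16.1%, 14.4% and 12.5% in db/db. This share includes all fragments from base 1. Ends at bases 31 to 33 made up 20.2%, 16.1%, 22.04% and 16.6% in wild type and 32.8%, 29.1%, 36.2% and 30.2% in db/db. The genotypes were apart in both shares. They were nearly so for bases 34 to 36 (29.8% ± 4.76 and 36.6% ± 2.45, SD, n = 4) and overlapped widely from base 37 on (14.9% ± 4.67 and 16.2% ± 4.66).

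**Figure D3:**
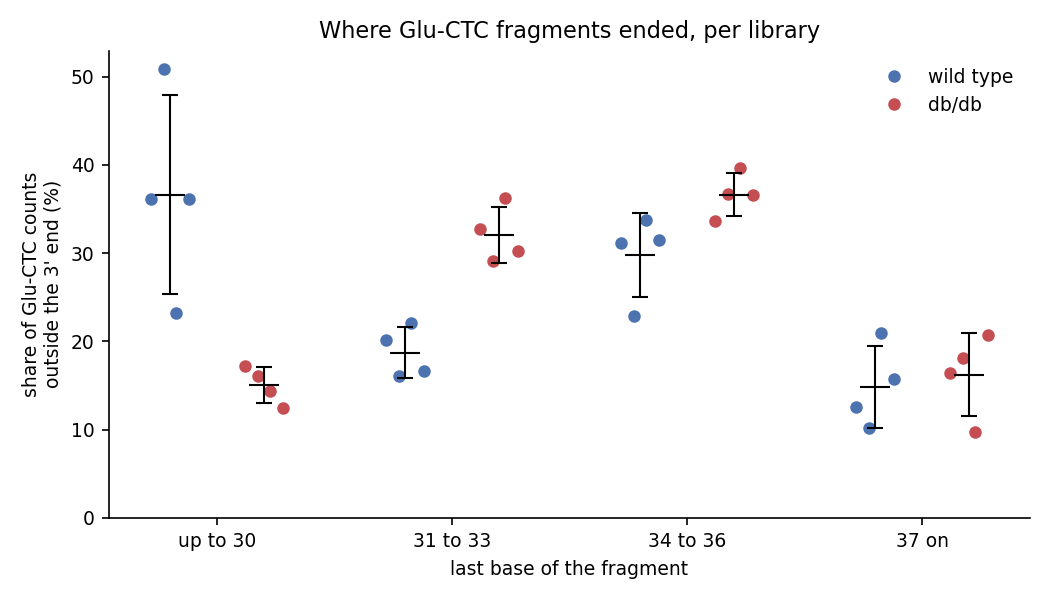
Share of the Glu-CTC counts outside the 3′ end (%) by last base of the fragment, in each library, with the mean and SD of 4 libraries per genotype. Ends up to base 30 fall between 23.3% and 50.9% in wild type and between 12.5% and 17.2% in db/db, and ends at bases 31 to 33 between 16.1% and 22.04% and between 29.1% and 36.2%. Ends up to base 30 include all fragments from base 1.

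The complete 3′ ends, fragments of the T arm and acceptor end, were abundant and showed no call. All 11 tested sequences had a log2 fold change below 0, between −0.91 and −0.18, and 0 reached an unadjusted p below 0.05 in edgeR's test. The 29 nt fragment from base 47 stood at 6978, 3749, 4950 and 8988 CPM in wild type and at 6347, 3202, 4819 and 4949 CPM in db/db, with wide overlap (log2 fold change −0.35, SE 0.35, adjusted p = 0.63). The 27 nt fragment from base 49 stood at 1199, 3817, 1103 and 4246 CPM in wild type and at 2658, 1381, 633 and 1843 CPM in db/db (−0.67, SE 0.46, adjusted p = 0.446). Wild type libraries 2 and 4 were more than 3 times as high in it as wild type 1 and 3, a gap wider than that between the genotype means.

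As a family, complete 3′ ends stood at 7164, 9119, 6276 and 17052 CPM in wild type and at 11616, 5862, 7132 and 8696 CPM in db/db. Wild type 4 was the highest library, and without it the log2 fold change of −0.25 (SE 0.35, adjusted p = 0.66) became 0.14 (adjusted p = 0.764). With totals of all counts it was −0.89 (adjusted p = 0.257) and with the effective library sizes −1.09 (adjusted p = 0.457). The mean length of 3′ ends came to 28.1 nt in both genotypes, with an SD of 0.265 for wild type and 0.308 for db/db (n = 4, exact permutation p = 0.857). The table held 0 Glu-CTC sequences that end 1 to 3 bases short of CCA, so that a share of shortened 3′ ends was not tested.

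Glu-CTC was set beside 7 other tRNAs that are known as sources of 5′ fragments. In Glu-TTC, the other glutamate tRNA, all 4 families tested were uncalled, and the family from bases 2 to 4, a single sequence of 6.57 to 24.8 CPM, had a log2 fold change of −0.10 (SE 0.49, adjusted p = 0.902). The log2 ratio of the Glu-CTC to the Glu-TTC 5′ region averaged −0.76 ± 0.53 in wild type, against −0.94 ± 0.22 in db/db (SD, n = 4, exact permutation p = 0.543, adjusted p = 0.84). The 5′ region and families of Glu-TTC use its main start only. With both of its starts counted, the difference of −0.189 between the genotypes became −0.022. In Gly-GCC, by contrast, the family from base 1 was called higher (1.95, SE 0.38, adjusted p = 0.000847). Over these 7 tRNAs, 3 of 24 families were called higher and 2 lower.

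Starts at bases 2 to 4 were tested as families in 9 tRNAs. Besides Glu-CTC, those of Asp-GTC (1.16, SE 0.28, adjusted p = 0.00428) and Val-AAC (1.16, SE 0.37, adjusted p = 0.0324) were called higher. The Asp-GTC family was more abundant, at 538 ± 79.9 CPM in wild type and 1205 ± 233 CPM in db/db (SD, n = 4). The log2 ratio of the Glu-CTC to the Asp-GTC family, chosen after these values were seen, averaged −3.20 ± 0.41 (SD) in wild type, against −2.23 ± 0.64 in db/db, a difference of 0.97 (two-sided exact permutation test, p = 0.0571). A larger change in Glu-CTC than in Asp-GTC was therefore not shown.

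Over the 8 libraries, the 5′ region of Glu-CTC, starts at bases 1 to 4, varied most like those of Gly-TCC (Pearson r = 0.62), iMet-CAT (0.62) and Ser-AGA (0.55) of 22 tRNAs compared, and least like that of Lys-TTT (−0.61) and Glu-TTC (−0.57). For complete 3′ ends the most alike of 42 were Arg-CCT (0.77), Lys-TTT (0.63) and Thr-TGT (0.63). The values, log2(CPM + 1), share libraries, depth and scaling, and the correlations are a description of 8 points.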

How the data were processed

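β-cell RNA was made into QIAseq libraries, 4 per genotype. The authors removed adapters, collapsed reads longer than 16 nt by unique molecular identifier, aligned them to GRCm38.p6 and kept perfect bowtie matches to mature tRNAs. Their deposited counts of unique molecules, without normalisation, were the basis of all tests. The authors' deposited RPM, used here as a score because they were rounded to whole numbers, gave the total of all counts per library, and the authors' deposited log2 values gave effective library sizes. Both served as alternative scalings. A column of the authors' directions of change was not used, and 0 columns of values lacked a sample. A sequence carries 1 tRNA name, so reads that match several tRNAs cannot be separated. Longer or modified fragments that block reverse transcription may be missed.

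Classes were read from the sequences: complete 3′ ends (ending in CCA), 5′ fragments from base 1 (the most abundant shared start of 8 bases), those from bases 2 to 4 (overlap of at least 12 bases) and internal. Mature tRNA sequences were not used here. Counts were fitted with edgeR 4.0.16 in R 4.3.3 over the whole table (TMM factors, filterByExpr with a minimum count of 10 and total of 15, genotype as the only term), first per sequence and then per family, with Benjamini-Hochberg adjustment. SE are the log2 fold change over the root of its F statistic. Shares, lengths and ratios per library were compared by two-sided exact permutation tests, with adjustment over 7 values. The procedure was tested on simulated data. The rule for naming took the 2 most abundant sequences of each class, every called sequence and all Glu-CTC families, of which single 5′ fragments are counted but not described here. The members, lists and comparison tRNAs were chosen with earlier results of these data known. P-values reflect the spread among 4 separate preparations per genotype.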

Additional observations from a re-analysis of the deposited data

Results flagged for a closer look

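The count-weighted mean length of the 5′ region in db/db libraries was flagged because 1 library stood apart from the others. It was 29.1 nt in db/db 3 and 28.6 to 28.7 nt in the other 3. The same library had the highest number of tRF counts, 2946290, and the highest share of starts after base 1, 49.7%. Of 54 groups of 4 values examined this was the only 1, and chance alone flags about 1 in 20.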

How the results depend on the processing

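No paired analysis was possible because the replicate numbers used here only follow sample order, and no label ties equal numbers of db/db and wild type together. The number of Glu-CTC sequences called, 10 in the report, was 3 with implied totals, 2 with effective log2 sizes, 16 with DESeq2, 6 at an adjusted p below 0.05 and 2 with wild type 1 and 2 left out together. It ran from 4 to 36 without single libraries, and in the other alternatives from 11 to 15. The median of all sequences stood at −0.36 and −0.51 with the first 2 scalings. The number called higher over all sequences, 102 in the report, was 52 with implied totals and 14 with effective log2 sizes. With DESeq2 it was 114, and with wild type 1 and 2 left out together 85. The number of called families, 1 in the report, was 2 with implied totals, where that from base 1 was added at −1.22, and 0 with effective log2 sizes, where that from bases 2 to 4 was at 1.73. It was also 0 when that family was merged with the internal one, and 1 to 2 without single libraries. Over all families, the number called higher was 7 in the report, 4 with implied totals and 0 with effective log2 sizes. Family log2 fold changes without single libraries ranged from −0.50 to 0.14 for complete 3′ ends, from −0.73 to −0.48 for base 1, from 1.92 to 2.30 for bases 2 to 4 and from 0.63 to 1.36 for internal.

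Of the differences per library, that in the Glu-CTC share of tRF counts, 0.00398 percentage points, reversed to −0.0059 over the filtered sequences and to −0.222 with wild type 1 and 2 left out, and ran from −0.226 to 0.209 without single libraries. That in the mean length of 3′ ends reversed to −0.0196 nt without the most abundant sequence and to −0.0545 nt with both libraries left out, and ran from −0.0922 to 0.168 nt. The log2 ratio to Glu-TTC ran from −0.411 to 0.020, the share of starts after base 1 from 22.3 to 30.6 percentage points, the mean length of the 5′ region from 0.229 to 0.396 nt, the share of 28 to 30 nt from 5.24 to 10.1 and the 5′ region share from −1.20 to −0.0786 percentage points. The causes were not tested. Counts of 33 to 80 per wild type library limit the precision of the family from bases 2 to 4.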
